A study of Mus musculus with 4 samples.

Results

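Macrophages were picked out of single-cell in situ maps of mouse skin, of skin wounds and of the buccal mucosa, the lining of the cheek. A cell counted as a macrophage when it held at least 10 transcripts in all, at least 3 transcripts of C1qa, Mrc1, Pf4 and Ms4a7 together, and no transcript of Mmrn1 or Cdh5, genes of lymphatic and blood vessel endothelium. By this rule 30927 of the 426404 cells with at least 10 transcripts were macrophages, over 17 tissue sections. A further 3153 cells reached the marker minimum but held Mmrn1 or Cdh5 and were left out, and 7 macrophages lay outside the sections.

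The assay was Xenium, which reads single transcripts of a fixed panel, here 328 genes, in a tissue slice and assigns each one to a segmented cell. The 4 slides each held fixed and embedded tissue cut at 5 µm. The unwounded skin slides, 1 of female and 1 of male mice, carried Control and PITX1+ skin, and a male slide carried wounds on postoperative day 4. PITX1+ mice expressed the transcription factor Pitx1 from a doxycycline-driven transgene (TRE-Pitx1 with Krt5-rtTA, so that only cells using the Krt5 promoter, the keratinocytes, switch it on) and were fed doxycycline. Control mice were vehicle-fed littermates on normal chow, and the buccal mucosa came from Control, vehicle-fed mice of both sexes. The labels name both conditions for a whole slide, so the condition of a section was read from its order across the slide. Female skin gave Control sections 1 and 2 and PITX1+ sections 1 and 2, and male skin gave Control section 3 and PITX1+ sections 3 and 4. The cheek gave 7 sections, and the wounds gave 1 Control and 2 PITX1+ sections. The labels do not say whether sections came from separate mice, while the study's legends for unwounded tissue give group sizes that match the section counts, and the p-values measure the spread between sections.

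Macrophages are phagocytes that clear dead cells and microbes and shape the tissue around them. In unwounded skin and mucosa many are long-lived residents, some of which lie along vessels and carry the hyaluronan receptor Lyve1 and the lectins Mrc1, Mgl2 and Cd209f. After wounding, monocytes arrive from the blood and turn into macrophages that first make inflammatory cytokines such as Il1b and later Arg1, which breaks down arginine, and matrix proteins such as osteopontin (Spp1).

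Before any comparison, the condition of the sections was checked against Pitx1 itself. In keratinocytes, called by their own markers, Pitx1 stood at 59.8, 60.7 and 16.5 counts per 1000000 transcripts (CPM) in Control sections 1, 2 and 3. PITX1+ sections 3 and 4 of the male slide had 1121 and 879 CPM, whereas PITX1+ sections 1 and 2 of the female slide had 45.0 and 77.9 CPM and so went against their label. Cell density in these female sections went with the label, since the paper reports denser PITX1+ skin. It was 5891 and 6361 cells per square millimetre, against 2882 and 2194 in Control sections 1 and 2. The paper measured density in its Xenium data, which are the data used here, so this match is not an independent check of the label. The wounds had 58.2 CPM in the Control section and 645 and 336 CPM in the PITX1+ sections, and the cheek, where Pitx1 is naturally expressed, had 735 to 1279 CPM in the 6 sections with keratinocytes. The main values of PITX1+ skin are therefore given by section, or by slide beside the fitted changes, so that they can be read without the female sections. Some fitted changes are given only over both slides. Cell identifiers shared between any pair of slides numbered 1 to 7, and 0.0375% to 0.0980% of decoded transcripts were control codes.

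The cells picked by the rule carried further macrophage genes that it did not use. Csf1r, the receptor for the growth factor that keeps macrophages alive, was 14.3 times higher in macrophages than in all other cells on average over the sections. The lectins Cd209f (20.6 times) and Mgl2 (13.9 times), the complement receptor C3ar1 (10.3 times), lysozyme Lyz2 (10.1 times) and the lysosomal protein Cd68 (7.4 times) were likewise higher. C1qa, a part of complement, was found in 72.7% to 96.2% of the macrophages of a section and the mannose receptor Mrc1 in 52.3% to 88.5%. Pf4, a chemokine, behaved differently between slides: 2.44% to 4.05% of macrophages held it in the female skin sections, 31.6% to 44.9% in the male skin, 35.6% to 46.9% in the wounds and 54.5% to 75% in the cheek. Cells with exactly 2 marker transcripts numbered 15680 and had a median Csf1r level of 10524 CPM over the sections, and those with exactly 3 numbered 8942 and had 13119 CPM.

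**Figure D1:**
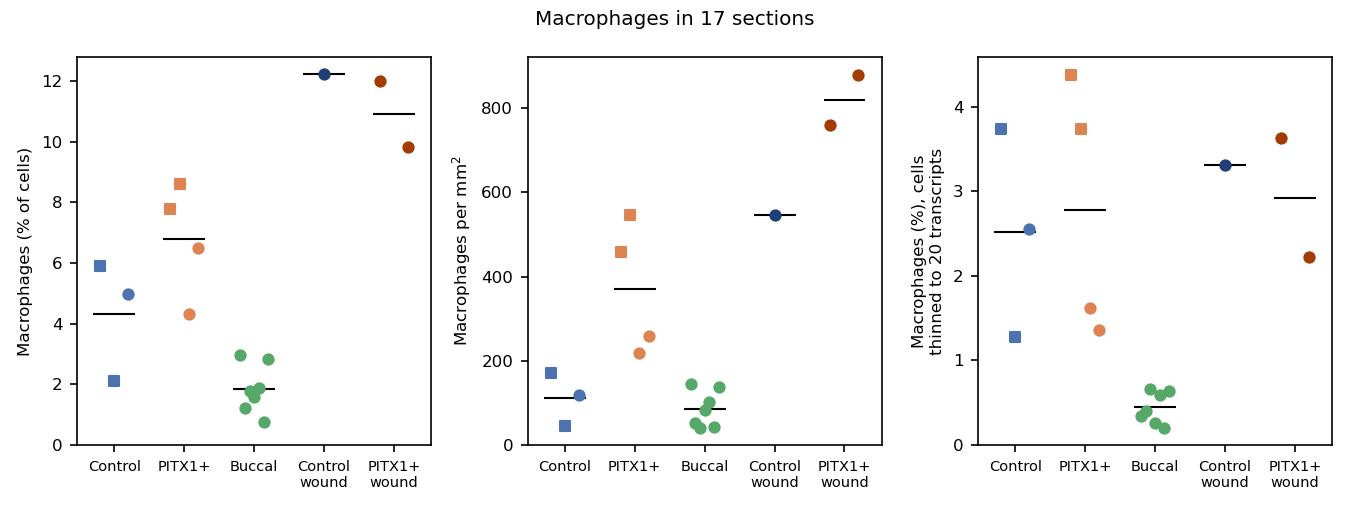
Macrophages per section of unwounded skin, buccal mucosa and wounds, as a percentage of cells with at least 10 transcripts, per square millimetre of tissue, and as a percentage after thinning cells with at least 20 transcripts to 20. Each point is 1 section, squares mark the female slide, circles the other slides, and lines the group means; the 3 wound sections, at 9.83% to 12.2%, lie above all 14 unwounded sections in the share.

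Macrophages were most frequent in wounds and least frequent in the cheek. They made up 12.2% of the cells of the Control wound (2233 macrophages) and 12.0% and 9.83% of the PITX1+ wounds (4582 and 6582). Control skin held 5.91%, 2.10% and 4.99% (1024, 247 and 633 macrophages). PITX1+ skin held 7.77% and 8.60% on the female slide (4444 and 6470 macrophages) and 4.31% and 6.48% on the male slide (1650 and 1815). The 7 buccal sections ran from 0.753% through a median of 1.80% to 2.96%, with 44 to 433 macrophages each.

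The wounds stood apart from unwounded skin, whereas the ranges of Control and PITX1+ skin overlapped. The mean share was 11.3% ± 1.32 (SD, n = 3) in wounds and 5.74% ± 2.19 (n = 7) in unwounded skin, and the exact 2-sided permutation test over sections gave p = 0.0167, the smallest it can give, with an adjusted p of 0.0667 over the 4 measures taken per section. The share was also taken with each cell thinned to 20 transcripts, for which cells below 20 had to be left out, and 81.2% to 85.8% of the cells of a wound and 65.5% to 93.9% of those of an unwounded skin section remained. The thinned share was 2.23% to 3.63% in wounds and 1.27% to 4.38% in unwounded skin, a difference of 0.389 percentage points (exact permutation p = 0.667), whereas the same minimum of 20 transcripts without thinning gave a difference of 6.89 (exact permutation p = 0.0167). The median cell held 58 to 62 transcripts in wounds and 26 to 87 in unwounded skin. Per square millimetre the wounds held 547, 760 and 879 macrophages against 46.0 to 547 in unwounded skin (exact permutation p = 0.0333). PITX1+ skin averaged 6.79% ± 1.87 (n = 4) and Control skin 4.33% ± 1.99 (n = 3), an exact permutation p of 0.229 where 0.0571 is the smallest possible. Without the female PITX1+ sections the difference between PITX1+ and Control skin shrank from 2.46 to 1.07 percentage points, and within the slides it was 4.18 on the female and 0.407 on the male one. With cells of at least 20 transcripts thinned to 20, PITX1+ skin averaged 2.78% and Control skin 2.52%, a difference of 0.255 percentage points (exact permutation p = 0.800), against 1.87 (exact permutation p = 0.343) over these cells unthinned, which were 77.5% to 93.9% of the cells of a PITX1+ and 65.5% to 75.8% of those of a Control section. Per square millimetre PITX1+ skin held 457, 547, 219 and 259 macrophages and Control skin 170, 46.0 and 118, with no overlap (exact permutation p = 0.0571, the smallest possible, adjusted p = 0.114), while cells of all kinds numbered 3994 to 6361 per square millimetre in PITX1+ and 2194 to 2882 in Control skin. Buccal mucosa averaged 1.86% ± 0.807 (n = 7) against 4.33% in Control skin, with an exact permutation p of 0.05 and an adjusted p of 0.0667. Per square millimetre the cheek held 41.2 to 145 macrophages against 46.0 to 170 in Control skin (exact permutation p = 0.467).

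Macrophages also differed in outline and depth. In Control skin their segmented area had a median of 366, 426 and 309 square µm, in PITX1+ skin 150, 176, 272 and 303, and the groups did not overlap (exact permutation p = 0.0571, the smallest possible, adjusted p = 0.229). On the male slide alone the Control section stood at 309 and the PITX1+ sections at 272 and 303 square µm. Buccal macrophages were smaller, at 139 to 302 square µm with a mean of 173 ± 57.6 (n = 7) against 367 ± 58.5 (n = 3), an exact permutation p of 0.0167 and an adjusted p of 0.0333. Mean nuclear areas were 20.8 ± 1.16 square µm in Control skin, 22.1 ± 2.82 in PITX1+ skin, 19.7 ± 1.51 in the cheek and 20.1 ± 1.49 in the wounds. All other cells had larger outlines in the Control sections too, with medians of 187, 229 and 205 square µm against 76.1 to 118 in PITX1+ skin. A median macrophage held 35, 35 and 44 transcripts in Control skin, 34, 53, 67 and 110 in PITX1+ skin, 56.5 to 122 in the cheek and 80 to 89 in the wounds. The cheek exceeded Control skin in every section (84.9 ± 24.1 against 38 ± 5.20, exact permutation p = 0.0167, adjusted p = 0.0333). The cheek's cells as a whole showed the same, with a median of 41 to 125 transcripts per cell against 26 to 32 in Control skin, and outlines of cells other than macrophages averaged 145 ± 56.0 square µm in the cheek and 207 ± 21.2 in Control skin. With any 1 Control section left out, the buccal area difference ran from -223 to -165 square µm and that in transcripts from 45.4 to 49.9. In all, 3046 to 646047 transcripts of genes outside the rule were counted per section, and the thinnest sections were Buccal 3 (44 macrophages) and Buccal 6 (45 macrophages).

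**Figure D2:**
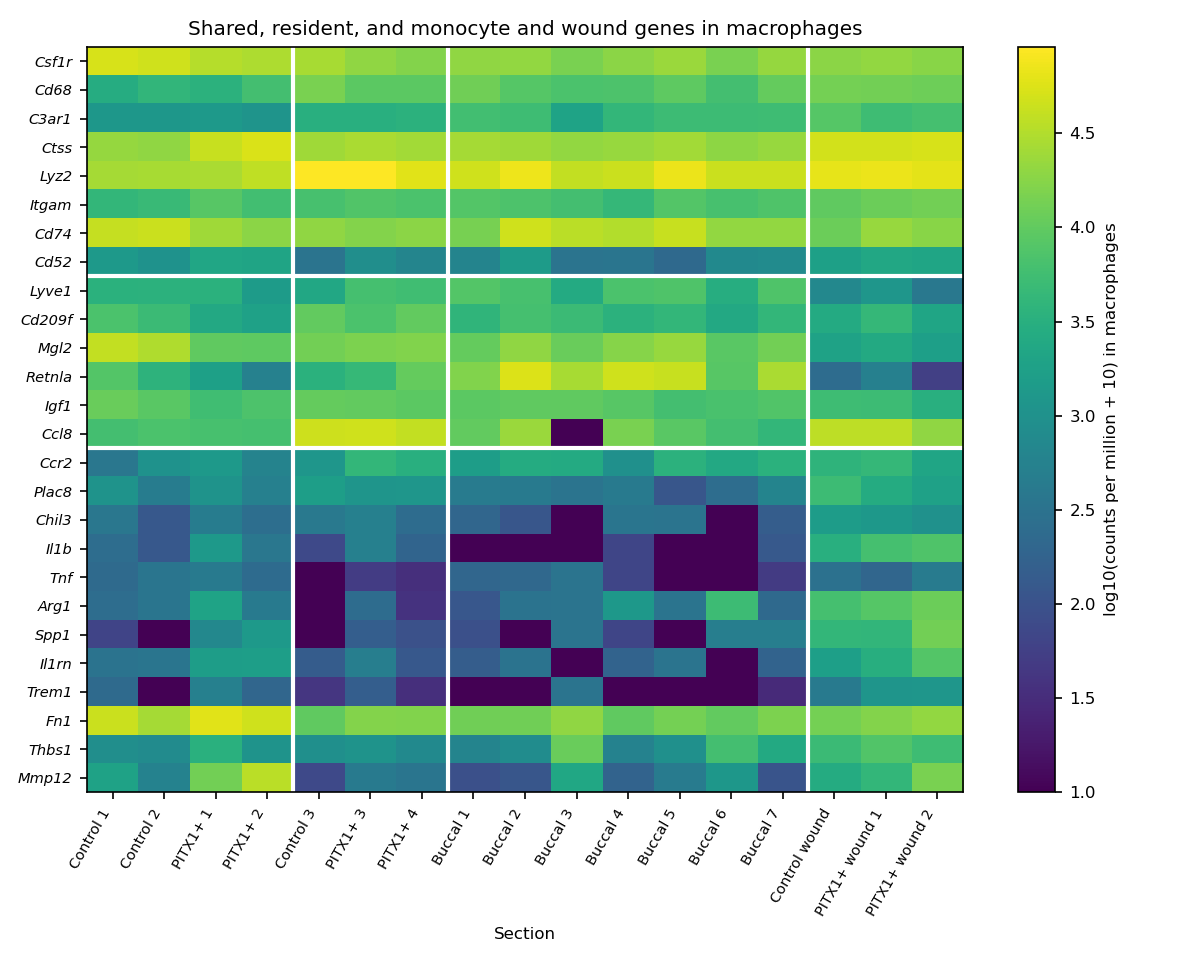
Levels of selected genes in the macrophages of each of the 17 sections, as log10 of CPM plus 10, colour-coded. Rows are the identity, resident, and monocyte and wound genes, columns are sections, and white lines part the lists and slides; Retnla peaks in a buccal section at 56104 CPM, and Arg1, Spp1 and Il1b are higher in the 3 wounds than in any other section.

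Gene levels below are CPM, that is transcripts of a gene summed over the macrophages of a section and scaled to a total of 1000000 over the 322 genes that the rule did not use. Of the resident genes, Retnla, Mgl2 and Lyve1 were lower in every wound section than in any other section. Retnla, a secreted protein made by alternatively activated macrophages, ran from 8587 through a median of 28655 to 56104 CPM in the cheek. In Control skin it stood at 7853, 3640 and 3334 CPM, in PITX1+ skin at 1794, 534, 4415 and 10557 CPM, and in wounds at 239, 512 and 46 CPM. Only in wounds did every section fall below every section of the other tissues. Mgl2, a galactose-binding lectin, was at 39516, 30486 and 12912 CPM in Control skin, 9935, 9346, 15172 and 15908 in PITX1+ skin and 1894, 2510 and 1679 in wounds, with the cheek at 8832 to 22161. Lyve1 reached 2354 to 3526 CPM in Control skin, 1477 to 6165 in PITX1+ skin and 2626 to 8044 in the cheek, and lay at 699, 1197 and 376 CPM in wounds.

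Other macrophage genes followed the slide more than the condition. Ccl8, a chemokine of resident macrophages, stood at 5959, 6825, 6453 and 6107 CPM in the 4 female skin sections and at 44915, 46959 and 39510 CPM in the 3 male ones. Lyz2 was at 26734 to 37663 CPM on the female slide and 59851 to 90844 CPM on the male slide, and the granulin gene Grn at 9783 to 16430 against 38770 to 57304 CPM. Slide and sex cannot be told apart here, and for this reason the comparison of PITX1+ with Control skin was fitted with the slide as a covariate.

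Among macrophages of PITX1+ against Control skin, 3 genes were higher and none was lower. In edgeR's quasi-likelihood test these were 0.938% of the 320 genes tested, all of them higher. Leaving out the slide covariate gave 0 calls, DESeq2 gave 10 higher and 11 lower, and scaling by library size in place of TMM gave 5 higher and 1 lower. The median log2 change over all genes was 0.13 with TMM and 0.26 with library size. Without Control section 2 no gene passed, without Control section 3 there were 8 calls, and without PITX1+ section 4 there were 7. Of the 320 genes, 13 (4.06%) had every PITX1+ section above every Control section and 7 (2.19%) the reverse.

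Saa3, an acute-phase serum amyloid, was at 139, 114 and 65 CPM in Control skin and at 28060, 7400, 474 and 231 CPM in PITX1+ skin. The PITX1+ sections all exceeded the Control sections, and the female ones by far the most (log2 change 6.12 ± 0.85 SE, adjusted p = 0.00405). Cells other than macrophages moved the same way, with 101, 128 and 46.4 CPM in Control skin and 7140, 1801, 166 and 76.1 CPM in PITX1+ skin, and the part of their transcripts in the macrophage values was not tested.

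Mmp12, the macrophage elastase, was at 1921, 569 and 65 CPM in Control skin and at 12837, 35197, 417 and 334 CPM in PITX1+ skin. On each slide the PITX1+ sections exceeded the Control ones, but the male PITX1+ sections lay below both female Control sections (log2 change 4.01 ± 0.66, adjusted p = 0.00972). Osteopontin (Spp1) was at 56, 0 and 0 CPM in Control skin and at 691, 1355, 144 and 85 CPM in PITX1+ skin (log2 change 4.74 ± 0.93, adjusted p = 0.0289). The Control value rests on 2 transcripts of Spp1 among 75292, against 647 among 866326 in PITX1+ skin, a ratio of 28.1 with an exact 95% interval of 7.75 to 233 that covers counting error only. On the male slide alone, where Pitx1 went with the label, the Control section held 2 transcripts of Saa3, 2 of Mmp12 and 0 of Spp1 among 30591. The ratio of PITX1+ to Control CPM there was 4.90 for Saa3 (exact 95% interval 1.33 to 41.0) and 5.59 for Mmp12 (1.51 to 46.6), intervals that cover counting error only. Without Control section 2 the log2 changes of Saa3, Mmp12 and Spp1 were 6.03, 3.59 and 4.54 (adjusted p = 0.150 for each). Spp1 also failed without PITX1+ section 2 (3.98, adjusted p = 0.123) or Control section 1 (adjusted p = 0.110), which leaves the Control sections at 0 Spp1 transcripts.

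Of the 6 resident genes none passed in either direction, and their median log2 change was -0.84 beside 0.13 over all genes. Mgl2 (-1.19), Cd209f (-1.13, adjusted p = 0.160) and Retnla (-1.35, adjusted p = 0.460) were below 0, while Lyve1 was at 0.00093 and Ccl8 at -0.16. By slide, Mgl2 came to -1.90 in female and 0.07 in male skin and Cd209f to -1.54 and -0.47. Lyve1 also differed by slide, read in macrophages with at least 30 transcripts outside the rule, thinned to 30. It was held by 5.97% in Control section 3 and by 16.6% and 14.3% in PITX1+ sections 3 and 4. The female slide had 8.10% and 12.4% in Control and 7.96% and 4.31% in PITX1+ sections. Retnla went in opposite ways on the slides, with a fitted log2 change of -2.50 in female and 1.01 in male skin, a difference of 3.51 ± 0.94 (adjusted p = 0.358 in edgeR's interaction test). No gene passed that interaction test at an adjusted p under 0.05, and 31 of 321 had an unadjusted p under 0.05. Of the 12 genes of incoming monocytes and wound macrophages, 2 rose, namely Spp1 and Mmp12 above, and the median of the list was 0.97. Il1b (1.96, adjusted p = 0.220), its antagonist Il1rn (1.90), Arg1 (2.13) and the integrin Itgax (2.52, adjusted p = 0.185) did not pass. The male Control section held 2 transcripts of Il1b and 4 of Il1rn, and the ratio of PITX1+ to Control CPM on that slide was 4.63 for Il1b (exact 95% interval 1.25 to 38.8) and 1.93 for Il1rn (0.727 to 7.25), counting error only. That Control section held 0 transcripts of Arg1 and of Itgax, and PITX1+ sections 3 and 4 held 30 and 6 of Arg1 and 28 and 43 of Itgax. On the female slide the unscaled counts were 9 and 3 of Arg1 in Control and 317 and 150 in PITX1+ sections. Those of Itgax were 7 and 0 against 73 and 265. None of the 8 identity genes passed, Csf1r being at -0.77 and the antigen presentation chaperone Cd74 at -0.80. The 8 keratinocyte genes, whose summed level in macrophages was 1242 to 6823 CPM in Control and 3439 to 27064 CPM in PITX1+ skin, had a median of 1.27 with none past the test.

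**Figure D3:**
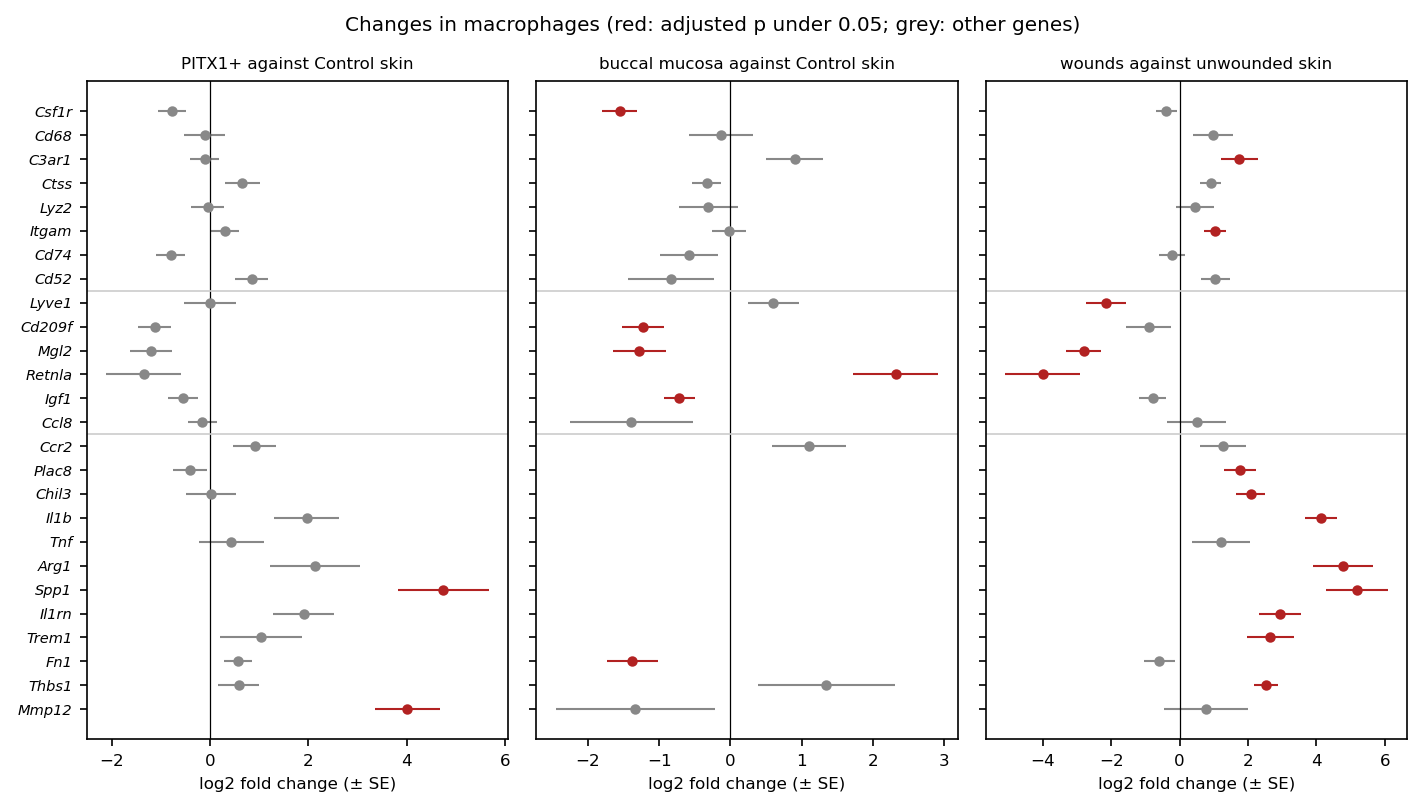
Log2 changes in macrophages, with standard errors, of the list genes in the 3 comparisons fitted by edgeR. Red points have an adjusted p under 0.05 over all genes tested, grey points do not, and genes without a point were not tested; in the wounds 8 of the 12 monocyte and wound genes are red to the right of 0 and 3 of the 6 resident genes red to the left.

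Buccal macrophages differed from those of Control skin in more genes, 11 higher and 20 lower of 169 tested (18.3% called, 6.51% higher and 11.8% lower). The split turned with the scaling: library size gave 19 higher and 8 lower, and DESeq2 gave 28 higher and 27 lower. The median log2 change over all genes was 0.07 with TMM and 0.47 with library size. Without Control sections 1 or 2 there were 16 calls, and without Control section 3 there were 61. All 7 buccal sections lay above the 3 Control sections in 13 genes (7.69%) and below them in 18 (10.7%). The cheek lay on a slide of its own, so that slide and tissue cannot be told apart.

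Retnla was the resident gene that rose in the cheek. In CPM its lowest buccal section (8587) exceeded the highest Control section (7853), whereas with TMM scaling the groups overlapped. Its log2 change was 2.32 ± 0.60 (adjusted p = 0.0187 in edgeR's test). The gene still passed when macrophages holding a keratinocyte or fibroblast marker were left out (2.52, adjusted p = 0.0308). The other calls among the 6 resident genes were lower, Mgl2 by -1.28 ± 0.37 (adjusted p = 0.0322), Cd209f by -1.23 ± 0.30 (adjusted p = 0.0151) and the growth factor Igf1 by -0.72 ± 0.22 (adjusted p = 0.0423). Lyve1 (0.61, adjusted p = 0.269) and Ccl8 (-1.39, adjusted p = 0.278) did not pass. The list had a median of -0.97. Retnla came to 2.40 (adjusted p = 0.0814) without Control section 2. Cd209f missed the threshold without Control section 2, Control section 3 or Buccal 5 (-1.27 to -0.82), Mgl2 in 7 of the 10 runs that left out 1 section (-1.30 to -0.95) and Igf1 in 8 (-0.72 to -0.53).

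Csf1r was lower in the cheek, at 14445 through a median of 20029 to 23013 CPM against 52659, 47662 and 27590 CPM in Control skin. No buccal section reached the lowest Control section (log2 change -1.55 ± 0.25, adjusted p = 0.00239), and Csf1r was the single call among 8 identity genes. The 4 marker genes of the rule made up 9.64% to 13.7% of the transcripts of Control macrophages and 5.08% to 7.01% of those of the deeper buccal ones. PITX1+ sections 3 and 4, with medians of 67 and 110 transcripts per macrophage, had Csf1r within the buccal range. The part of depth in this difference was not tested. C3ar1 (0.90, adjusted p = 0.139) did not pass.

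Of the genes outside the lists that rose without overlap, those at least 1.5 times higher in macrophages than in other cells were Angptl1, an angiopoietin-like secreted protein (log2 change 2.46 ± 0.41, adjusted p = 0.00252, 3435 to 11875 CPM against 621 to 1593) and Igfbp4, which binds insulin-like growth factors (0.79 ± 0.20, adjusted p = 0.0187, 7812 to 13079 against 4053 to 4778 CPM). Fibroblast markers such as Pi16 (2.57 times) and Col14a1 (2.18 times) met that minimum too. The part of fibroblast transcripts in the change of Angptl1 was not tested. Among genes that fell were the antioxidant enzyme Gpx3 (-2.82 ± 0.82, adjusted p = 0.0315), the Wnt coreceptor Lrp6 (-0.93 ± 0.20, adjusted p = 0.00669), fibronectin Fn1 (-1.37 ± 0.36, adjusted p = 0.0187) and the membrane protease Mmp14 (-2.66 ± 0.43, adjusted p = 0.00239). Col1a1, a collagen of fibroblasts, fell most firmly (-3.58 ± 0.35, adjusted p = 7.15e-05) from 40824 to 155159 CPM in Control skin to 7851 to 15430 CPM in the cheek, and Krt4, a keratin of mucosal epithelium, rose (6.15 ± 1.23, adjusted p = 0.00573). Igfbp4 missed the threshold without Control section 1 or Buccal 4 (0.74 and 0.67), Lrp6 without Control section 2 (-0.84), Fn1 in 4 of 10 runs that left out 1 section (-1.24 to -0.95) and Gpx3 in 5 (-2.85 to -2.57).

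Some genes of other cell types differed inside macrophage outlines as well. The 7 fibroblast genes summed to 74937, 172563 and 110425 CPM in Control macrophages and to 34347 to 56468 CPM in buccal ones, and 1 of the 7 passed, Col1a1. Col1a1 carried this fall, and without it the sum was no lower in the cheek on average. The median log2 change of the list was -0.16 with TMM and 0.24 with library size. The 4 endothelial genes had a median log2 change of 1.12 with none past the test. With macrophages holding a keratinocyte or fibroblast marker left out, 4 genes passed, 2 higher and 2 lower, Retnla and Gpx3 (-2.72, adjusted p = 0.00557) among them, while Csf1r (-1.28) and Cd209f (-1.08) came to an adjusted p of 0.0969 each and Igfbp4 turned to -0.23. Saa3 had 0 transcripts among 131641 in the buccal macrophages, which allows up to 22.8 CPM.

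Wound macrophages differed from those of unwounded skin in 50 of 322 genes (15.5% called), 34 higher (10.6%) and 16 lower (4.97%). Library size scaling gave 24 higher and 12 lower, DESeq2 gave 49 higher and 48 lower, and the median log2 change over all genes was -0.12 with TMM and -0.37 with library size. All wounds lay on 1 slide, so that slide and wounding cannot be told apart. They were also all male, whereas the unwounded skin held female and male sections. The fit had the condition, PITX1+ or Control, as a covariate and no term for sex. Male slides alone gave more calls, as listed with the processing. The 3 wounds lay above all 7 unwounded skin sections in 43 genes (13.4%) and below them in 18 (5.59%). Leaving out the female PITX1+ sections gave 35 higher and 22 lower. Without the Control wound there were 9 calls, without the first PITX1+ wound 15 and without the second 12. Of the 27 calls named below, 7 passed whichever section was left out, namely Il1b, Timp1, S100a8, Cxcr2, Cxcl5, Mgl2 and Abca8a, and the other 20 each missed the threshold without at least 1 of the wounds (adjusted p up to 0.405). Spp1 (4.01, adjusted p = 0.0650), Arg1 (4.21, adjusted p = 0.0874) and Thbs1 (2.21, adjusted p = 0.0518) did so only without the Control wound. Some calls were also lost without a section of unwounded skin: of the 10 runs that left out 1 section, Itgam failed in 9, C3ar1 in 8, Thbs2 in 7, Plac8, Cxcl3 and Mmp3 in 6 each and Lyve1 in 5. Without the female PITX1+ sections, Itgam (0.66, adjusted p = 0.350), C3ar1 (1.16, adjusted p = 0.157), Thbs2 (1.36, adjusted p = 0.125), Plac8 (1.31, adjusted p = 0.111) and Mmp9 (3.27, adjusted p = 0.0572) did not pass.

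Of the 6 resident genes 3 fell and none rose, with a list median of -1.52. Retnla fell by 4.00 ± 1.10 on the log2 scale (adjusted p = 0.0351), Mgl2 by 2.80 ± 0.51 (adjusted p = 0.00521) and Lyve1 by 2.14 ± 0.58 (adjusted p = 0.0338). In Mgl2 and Lyve1 no wound section reached the lowest unwounded skin section. In Retnla this held in CPM, whereas with TMM scaling wounds and unwounded skin overlapped. Cd209f (-0.90) did not pass, and Ccl8 (0.51) did not either, its wound levels of 36919, 36714 and 20060 CPM lying between those of the female and male skin slides. Csf1r was at 18514, 20398 and 17880 CPM in wounds and 16874 to 52659 CPM in unwounded skin (log2 change -0.38, not passing).

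Of the 12 genes of incoming monocytes and wound macrophages 8 rose and none fell, with a list median of 2.30. Spp1 went from 0 through a median of 85 to 1355 CPM in unwounded skin to 4198, 3955 and 13120 CPM in wounds (log2 change 5.19 ± 0.90, adjusted p = 0.00451). Arg1, arginase, went from at most 1974 CPM to 6092, 8189 and 11618 CPM (4.78 ± 0.87, adjusted p = 0.00521). Il1b, the inflammatory cytokine, went from at most 1395 CPM to 3152, 6164 and 7472 CPM (4.14 ± 0.48, adjusted p = 0.000484). In each of these the wounds lay above every unwounded skin section. Il1rn (2.93 ± 0.61), the receptor Trem1 (2.65 ± 0.69), thrombospondin Thbs1 (2.52 ± 0.35), Chil3, a chitinase-like protein of recruited macrophages (2.08 ± 0.43), and Plac8 (1.77 ± 0.46) completed the 8, with adjusted p from 0.00152 to 0.0284. Mmp12, which had passed in PITX1+ against Control skin with its high values on the female slide, did not pass in wounds (0.77).

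**Figure D4:**
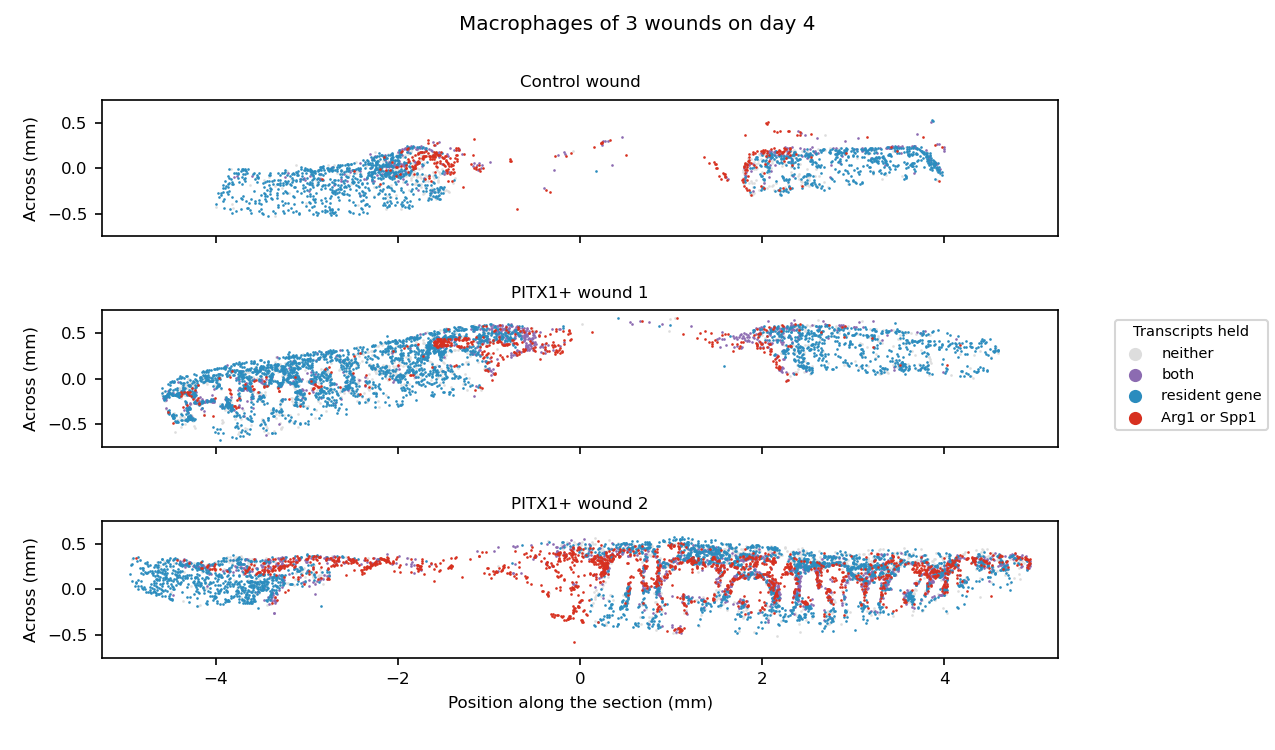
Positions of macrophages in the 3 wound sections, in mm along each section. Blue points hold a resident gene and neither Arg1 nor Spp1, red points Arg1 or Spp1 and no resident gene, purple points both and grey points neither. Red points lie in patches, with 59.0%, 60.6% and 76.6% of them within 25 µm of another. Over all wound macrophages the resident gene held most often was Ccl8. The part of transcripts from neighbouring cells was not tested.

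Receptors and matrix genes were among the calls too. The chemokine receptors Ccr1 (1.84 ± 0.36, adjusted p = 0.00793) and Cxcr2 (3.83 ± 0.65, adjusted p = 0.00406) rose. Ccr1 was at 5014 to 6238 CPM in wounds and at most 3824 CPM in unwounded skin. Of 10 chemokine ligands 1 rose, Cxcl3 (3.48 ± 0.98, adjusted p = 0.0371), and outside the lists so did Cxcl5 (4.96 ± 0.79, adjusted p = 0.00378), both of them neutrophil attractants. Of 9 matrix genes 4 rose, Timp1, an inhibitor of matrix proteases (4.33 ± 0.53, adjusted p = 0.000613), the gelatinase Mmp9 (3.72 ± 0.83, adjusted p = 0.0180), Spp1 and Thbs1. C3ar1 (1.75 ± 0.53, adjusted p = 0.0461) and the integrin Itgam (1.03 ± 0.31, adjusted p = 0.0449) rose among the 8 identity genes. None of 8 lysosome and antigen presentation genes passed, with a median of 0.87, and none of 10 cell cycle genes, with a median of 0.43. Thbs2 (1.94 ± 0.56) and the stromelysin Mmp3 (2.24 ± 0.62) rose as well. Penk, the precursor of enkephalins (-2.86 ± 0.69), the lipid transporter Abca8a (-2.81 ± 0.51), Igfbp6 (-2.25 ± 0.55), tenascin-X Tnxb (-1.74 ± 0.39) and laminin Lamc1 (-1.38 ± 0.34) fell. Tnxb is on the fibroblast list and was a marker for calling fibroblasts. The markers for calling fibroblasts were themselves 1.57 (Col1a1) to 2.57 times (Pi16) as high in macrophages as in all other cells. Penk, Abca8a, Igfbp6, Lamc1, Mmp3, Thbs2 and Timp1 were at 1.54 (Lamc1) to 2.26 times (Igfbp6). The part of fibroblast transcripts in the changes of these genes and of Tnxb was not tested.

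Neutrophil genes were measured in the same outlines. The 4 neutrophil genes, Cxcr2, S100a8, Trem1 and Stfa3, summed to 98.1 to 1576 CPM in the macrophages of unwounded skin and to 4473, 9805 and 11170 CPM in those of wounds, and 3 of the 4 rose. At least 1 of these genes was held by 0.474% to 5.20% of unwounded skin macrophages and by 15.9%, 26.8% and 39.6% of wound macrophages. With all such macrophages left out, 30 genes still passed, 21 higher and 9 lower, Spp1 (5.06), Arg1 (4.42), Il1b (3.07), Timp1 (4.33), Retnla (-3.75) and Mgl2 (-2.46) among them, whereas Il1rn (2.17, adjusted p = 0.0508), Cxcl3 (2.63, adjusted p = 0.117) and Lyve1 (-1.86, adjusted p = 0.0561) did not. Several of the genes that rose were lower in macrophages than in all other cells on average over the sections, namely Chil3 (0.15 times), Arg1 (0.34), Il1rn (0.35), S100a8 (0.41), Cxcl3 (0.45), Trem1 (0.62), Il1b (0.67), Cxcr2 (0.73) and Mmp9 (0.94). The part of transcripts from other cells in their wound values was not tested.

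With 1 Control wound, the PITX1+ wounds could be set beside it only as values, with no test. Both PITX1+ wounds were at least 2-fold higher in 18 of 300 genes (6%) and at least 2-fold lower in 30 (10%). Mmp9 stood at 848 CPM in the Control wound and 2486 and 4877 CPM in the PITX1+ wounds, Itgax at 329 against 1003 and 1666, and Trem1 at 419 against 1134 and 1175. Saa3 was at 6015 against 13675 and 13931 CPM and Cxcl5 at 1326 against 6480 and 3356. Il1b was just under that fold in the first PITX1+ wound, at 3152 against 6164 and 7472 CPM. Among the lower genes, Igf2, a growth factor, was at 2385 CPM in the Control wound against 495 and 269 in the PITX1+ wounds, Angptl1 at 482 against 129 and 96.0 and Cd34 at 4374 against 2039 and 1139. Igf2, Angptl1 and Cd34 were chosen after their values were seen. Of the markers used to call keratinocytes, Krt1 was lower, at 767 against 170 and 178 CPM, and so was Krt15, at 370 against 75.3 and 21.7. The other markers did not follow them. Krt17, Krt5, Krt6a, Col17a1 and Trp63 stayed within 2-fold of the Control wound. Krt4 was higher in both PITX1+ wounds, but its Control value rests on 2 transcripts. The summed neutrophil genes were higher in both PITX1+ wounds, although Stfa3 among them was lower (893 against 201 and 293 CPM), and the part of these other cells in the values was not tested.

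**Figure D5:**
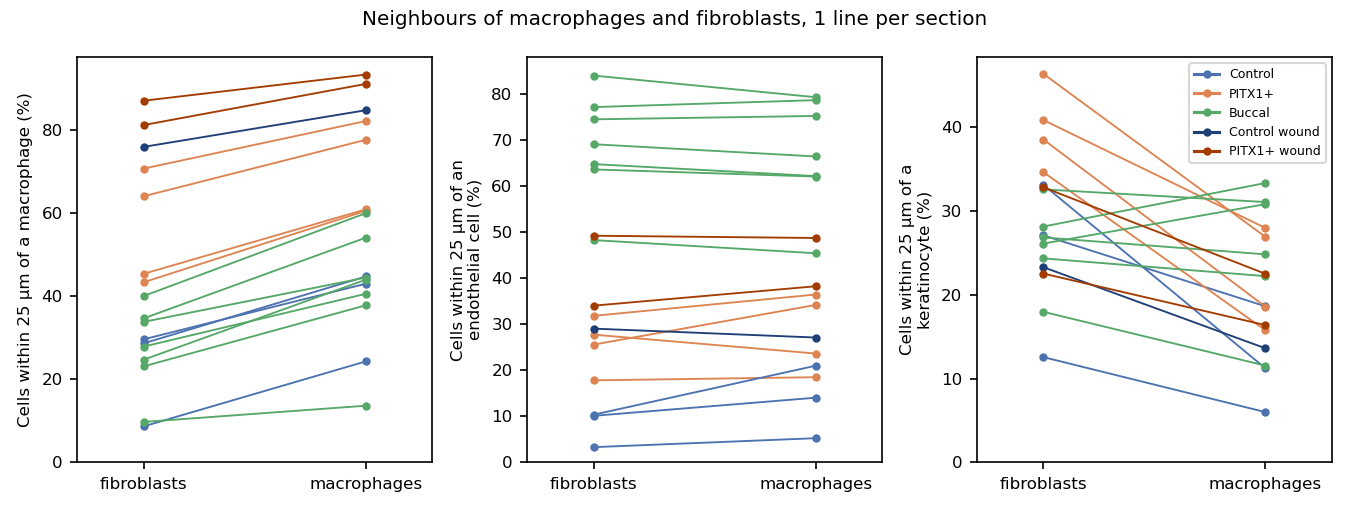
Percentage of macrophages and of fibroblasts within 25 µm of another macrophage, an endothelial cell or a keratinocyte in each of the 17 sections. Lines join the 2 cell types of a section and colours mark the groups; macrophages lie above fibroblasts in all 14 unwounded sections for nearness to a macrophage.

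Macrophages lay near one another. Within 25 µm of a macrophage centre, 49.1% had another macrophage on average over the 14 unwounded sections, against 34.6% of fibroblasts, a difference of 14.5 percentage points (SD 4.20). It was positive in 14 of 14 sections (exact sign-flip permutation p = 0.000122, the smallest possible, adjusted p = 0.000488 over 4 neighbour types). A fibroblast whose outline took in 3 marker transcripts of a nearby macrophage would itself count as a macrophage. The part of such cells in the difference was not tested. Keratinocytes were farther from macrophages than from fibroblasts in skin, with 17.9% of macrophages and 33.3% of fibroblasts within 25 µm of one, lower in 7 of 7 sections (exact permutation p = 0.0156, the smallest possible). Buccal 3 held 0 keratinocytes, and in the other 6 buccal sections, a choice made after seeing the data, the values were 25.6% and 26.0% (exact permutation p = 0.844). Over the 14 sections the difference was -7.87 (SD 9.30, adjusted p = 0.0156 by exact permutation), and without Buccal 3 it was -8.48 with the same adjusted p. Whether skin and cheek differ in this, or in nearness to endothelial cells, was not tested. Endothelial cells were near 44.5% of macrophages and 43.5% of fibroblasts (adjusted p = 0.435 by exact permutation), and with the cells kept that the rule leaves out for Mmrn1 or Cdh5, the difference was 3.86 percentage points (adjusted p = 0.0200 by exact permutation). The rule dropped macrophages with any Cdh5, itself a marker for calling endothelial cells, whereas fibroblasts were dropped only at 3 or more endothelial transcripts. With the cells kept, macrophages at or above that number stayed in. Neither comparison thus treated the 2 cell types alike, and neither can decide whether macrophages lie nearer to endothelial cells. The values by tissue follow the rule. By tissue, endothelial cells were near 21.9% of macrophages and 18.1% of fibroblasts in skin, higher in 6 of 7 sections (exact permutation p = 0.0938), and near 67.1% and 68.8% in the cheek, lower in 5 of 7 (exact permutation p = 0.0781). T cells were near 1.81% of macrophages and 1.69% of fibroblasts in skin (exact permutation p = 0.812), where a section held 5 to 165 of them, and the cheek, with 0 to 2 T cells in a section, allowed no such comparison.

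Macrophages were then sorted by which of the resident and the monocyte or wound genes each one held. The classes left out Igf1, Fn1 and Thbs1, and macrophages with fewer than 30 transcripts of the 322 genes outside the rule were dropped so that the rest could be thinned to 30. This kept 49.0% to 66.2% of the macrophages of a Control skin section, 49.2% and 73.2% on the female and 82.6% and 94.3% on the male slide of PITX1+ skin, 89.2% to 92.5% in wounds and 72.7% to 96.8% in the cheek. Of the Control skin macrophages kept, 59.7%, 62.0% and 71.6% held a resident gene and no monocyte or wound gene, and 3.01%, 4.13% and 1.91% the reverse. PITX1+ skin split by slide, with 28.5% and 29.4% resident only and 21.5% and 25.5% monocyte or wound only on the female slide, and 67.0% and 70.2% against 4.70% and 3.86% on the male slide. In the female sections the most frequent of these genes was Mmp12, held by 13.6% and 24.6% of the PITX1+ macrophages kept, beside 3.75% and 0.993% with Il1b, 3.98% and 0.993% with Arg1 and 1.42% and 2.22% with Spp1. Wounds had 36.0%, 36.4% and 23.2% resident only and 24.1%, 26.5% and 38.6% monocyte or wound only. Of those kept in wounds 3.87%, 5.31% and 15.4% held Mmp12 and 8.91%, 6.63% and 17.9% Spp1. The resident gene held most often in wounds was Ccl8, in 52.3%, 49.2% and 36.4%. Cd209f was held by 5.52%, 9.30% and 5.52% and Mgl2 by 5.08%, 6.63% and 4.37%. The resident class of the wounds thus rests mainly on Ccl8, which followed the slide in skin. In the cheek 46.9% to 80.0% were resident only. Over all macrophages, unthinned, resident-only shares were 58.3% to 74.2% in Control skin, 31.3% and 35.6% on the female and 64.2% and 66.3% on the male slide of PITX1+ skin, 19.8% to 31.8% in wounds and 54.5% to 80.0% in the cheek. These shares are descriptions of the same genes as above and were not tested.

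Pairs of genes were also read in single macrophages. Spp1 was found in 28.7%, 20.5% and 37.5% of the macrophages thinned in this way with Arg1 in the Control and the 2 PITX1+ wounds and in 7.08%, 5.28% and 14.1% of those without. Mgl2 was found in 1.15%, 2.85% and 1.57% of macrophages with Arg1 and in 5.02%, 6.88% and 4.82% of those without. In unwounded skin the shares were 16.5% against 18.6% in PITX1+ section 1 and 26% against 20.6% in PITX1+ section 2. Cd209f went with Lyve1, in 23.7% against 8.62% in the first PITX1+ wound, 18.4% against 5.01% in PITX1+ section 1 and 37.7% against 20.6% in PITX1+ section 4.

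In the wounds the macrophages with Arg1 or Spp1 lay in patches. Of macrophages with Arg1 or Spp1 and no resident gene, 59.0%, 60.6% and 76.6% had another of their kind within 25 µm, against 7.50%, 10.0% and 27.8% of macrophages with a resident gene and neither Arg1 nor Spp1. The Arg1 or Spp1 macrophages numbered 278, 416 and 1576 and those with a resident gene 1307, 2724 and 2503. That resident gene was mostly Ccl8, held by 68.5%, 65.0% and 52.8% of all macrophages of the wounds, beside 11.0%, 14.8% and 9.18% with Cd209f. Median distances to the nearest endothelial cell were 60.1, 40.5 and 31.4 µm for the first kind and 43.1, 29.2 and 24.8 µm for the second, longer for the Arg1 or Spp1 macrophages in 3 of 3 wounds. The first kind held more transcripts, with medians of 94, 110 and 117 against 89, 76 and 76, and the classes were read from unthinned transcripts. Over all sections Arg1 was 0.34 times and Spp1 1.26 times as high in macrophages as in all other cells. The part of transcripts from neighbouring cells in these patches was not tested.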

How the data were processed

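Mouse tissue on 4 slides was imaged by Xenium in situ; cells were segmented by the authors, and the software version and segmentation settings are not given in the sources used here. The deposited tables hold, per transcript, its gene, cell and a quality score, and, per cell, transcript counts, areas and centroids. Per-cell counts were rebuilt here from transcripts whose quality score reached 20. Sections were cells chained within 100 µm (200 µm for wounds) with at least 2000 cells, and their condition was taken from their order across the slide. The members, the gene lists and the tests were chosen with earlier results of these data known.

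Counts were summed per section over macrophages, without the 6 rule genes, and tested with edgeR 4.0.16 (filterByExpr, TMM, quasi-likelihood test, Benjamini-Hochberg, threshold 0.05) in R 4.3.3, with DESeq2 1.42.0 as an alternative. Covariates were the slide (PITX1+ against Control) and the condition (wounds). On simulated data, 2-fold and 4-fold changes were recovered in 34.0% and 91.3% of genes for PITX1+ against Control skin, 27.9% and 75.0% for buccal against Control and 15.5% and 46.3% for wounds. The simulations changed 192 of 320, 101 of 169 and 193 of 322 genes, far more than were called in the real data. All sections of a comparison had the same baseline, with no slide effect. These rates therefore do not give the power of the real comparisons. Section values were compared by exact 2-sided permutation tests (the smaller tail doubled), adjusted over 4 measures; scipy 1.17.1 was used. Named genes were those of the lists and up to 8 per direction with adjusted p under 0.05, no overlap of sections and at least 1.5-fold enrichment in macrophages. Overlap, here and in the counts of genes without it, was judged on TMM-scaled values. The CPM printed are not TMM-scaled, and in CPM Gpx3 overlapped between cheek and Control skin. Krt4 in the cheek and Saa3 in the cheek and the wounds were chosen after their values were seen. Neighbouring cells were called from marker transcripts, at least 5 for keratinocytes (Krt5, Krt15, Krt1, Krt4, Krt6a, Krt17, Col17a1, Trp63) and fibroblasts (Col1a1, Lum, Pdgfra, Col14a1, Pi16, Tnxb), 3 for endothelial cells (Pecam1, Cdh5, Flt1, Vwf, Adgrl4) and 2 for T cells (Cd3g, Icos, Cd7), and cells that met more than 1 definition were left out. No doublet caller was run. Intervals are exact 95% and cover counting error only. The alternatives tried are given with their effects after the report. One of the genes tested is not reported here.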

Additional observations from a re-analysis of the deposited data

Results flagged for a closer look

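In groups of 4 to 7 sections, 7 of 67 values lay far from the rest of their group by Dixon's criterion, and chance alone marks about 1 group in 20. PITX1+ section 1 was the farthest for nearness to keratinocytes, where macrophages lay 12.9 percentage points below fibroblasts (a difference of -12.9) against -19.9 to -18.9 in the other PITX1+ sections, and for Thbs1, at 3295 CPM against 740 to 1084. PITX1+ section 3 had Igfbp6 at 2159 CPM against 4744 to 4952. Buccal 3, with 44 macrophages, had a median cell area of 302 square µm against 139 to 164 and Gpx3 at 38411 CPM against 1755 to 4688. In Buccal 5 macrophages exceeded fibroblasts in nearness to T cells by 1.51 percentage points against 0 to 0.146, a value that rests on 1 T cell, with 0 T cells in Buccal 1, 2 and 4 and at most 2 in the other buccal sections. In Buccal 4 Krt4 reached 14040 CPM against 657 to 4155.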

How the results depend on the processing

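No paired analysis was possible because the replicate numbers of the labels count slides and are all 1. The slide that Control and PITX1+ sections share was a covariate of their gene fit, and the permutation tests over sections did not use it. Left-out sections moved the count of changed genes from 0 to 8 for PITX1+ skin, from 16 to 61 for the cheek and from 9 to 64 for wounds. PITX1+ skin had 3 calls and gave 6 with library size, 21 with DESeq2, 7 with transcripts over the nucleus only, 0 with transcripts of any quality, 6 without macrophages holding a keratinocyte or fibroblast marker, 0 with no slide covariate, 0 with male skin alone (2 sections against 1) and 11 with female skin alone. The cheek had 31 and gave 55 with DESeq2 and 4 without macrophages holding such a marker. Wounds had 50 and gave 97 with DESeq2, 33 over the nucleus, 30 without macrophages holding a neutrophil marker (chosen after seeing the data) and 119 with male slides only. With a 2-sided p taken from the absolute difference, also chosen after seeing the data, the buccal share (-2.47 percentage points) and the wound share (5.61) passed at adjusted p = 0.0333 by exact permutation, the buccal share also with cells of at least 20 transcripts thinned to 20 (-2.08). The buccal differences in transcripts per macrophage (40.8 to 51.7 with sections left out) and cell area (-223 to -165 square µm) could not reach the threshold with a Control section left out, since 2 against 7 sections give an exact permutation p of 0.0556 at the smallest, so these runs say nothing about stability. The wound differences in share (5.01 to 6.37) and transcripts (28.3 to 41.0) passed without PITX1+ section 4. Nearness to endothelial cells passed with Mmrn1 or Cdh5 cells kept (3.86), and that to keratinocytes missed at 50 µm (-8.34, adjusted p = 0.0728 by exact permutation). The sign turned for the following genes. In PITX1+ skin Lyve1 came to -0.030 with DESeq2, -0.17 over the nucleus, -0.65 with female skin alone and -0.45 to 0.37 with 1 section left out (below 0 without Control section 3, PITX1+ section 3 or PITX1+ section 4). Ccl8 there came to 0.033 with at least 5 marker transcripts, 0.28 without the keratinocyte or fibroblast markers, 0.12 with no slide covariate and -0.28 to 0.13 with 1 section left out (above 0 without Control section 3), and Retnla to 0.044 with no slide covariate and 0.84 with male skin alone. In the cheek Igfbp4 came to -0.23 without those markers and Ccl8 to -1.78 to 0.32 with 1 section left out (above 0 without Control section 3). In wounds Ccl8 came to -0.71 with male slides only, -0.22 without the female PITX1+ sections and -0.0059 to 1.25 with 1 section left out (below 0 without PITX1+ section 1), and Mmp12 to -0.27 to 1.83 (below 0 without the Control wound). The causes were not tested. In the cheek comparison 169 of 322 genes had enough transcripts to be tested.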
